A study of Mus musculus with 12 samples.

Results

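The 10 genes described here encode enzymes that remove reactive oxygen or keep thiols reduced: Sod1, Sod2, Cat, Gpx1, Gpx4, Prdx1, Txn1, Txnrd1, Gclm and Nqo1. They were chosen by gene symbol and by what their products do, and all 10 were found among the 35976 symbols counted. The cells were mouse haematopoietic stem cells (HSCs), isolated as cells without lineage markers that carry c-Kit and Sca-1, from mice whose labels read knockout (KO) or wild type (WT) for Cd38. Cd38 encodes an enzyme that consumes NAD. The 12 libraries formed 6 groups of 2. Stimulated KO and stimulated WT cells came from animals aged 2 months and had spent 24 hours outside the body with cytokines. Old fresh KO and old fresh WT cells were sequenced directly after isolation from animals aged 24 months, and young fresh KO and young fresh WT cells directly after isolation from animals aged 2 months. The labels give neither the knockout allele nor the cytokines nor the strain, and do not tell if 2 libraries of a group stem from different animals. The p-values therefore reflect how these libraries vary, which may be technical.

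Superoxide dismutases turn superoxide into hydrogen peroxide, which catalase, glutathione peroxidases and peroxiredoxins then reduce. The peroxidases draw their electrons from glutathione or from thioredoxin, and both carriers are recharged with NADPH. In blood stem cells, which rest for long periods and divide on demand, the level of reactive oxygen is known to rise with activation, and several of these genes are known targets of the transcription factor NRF2.

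Each library held between 1600155 and 5164720 counts. The old fresh libraries held 3796591 to 5164720, the stimulated ones 2692245 to 3249721 and the young fresh ones 1600155 to 1963635, so depth differed with age and with stimulation, and its part in the results was not tested. With every library thinned to 1600155 counts, 12724 to 12991 genes were detected in stimulated libraries. Young fresh libraries then had 9054 to 9956 and old fresh ones 9285 to 9923. The fresh libraries thus held fewer genes at equal depth as well. The part of this in the zeros of Gpx4 and Nqo1 was not tested. Levels are CPM, counts relative to library sizes scaled by TMM, given for KO replicate 3 and then 4, and for WT replicate 1 and then 2. Across genes, which are not independent replicates, log2 levels of the 2 replicates correlated at 0.954 and 0.959 in stimulated KO and WT cells, and at 0.704 to 0.746 in the 4 fresh groups. Cd38 itself was counted in every library, with 62.7 and 31.9 CPM in young fresh KO cells against 17.5 and 24.5 CPM in young fresh WT cells. In old fresh cells it had 13.2 and 19.8 CPM in KO and 74.3 and 41.4 CPM in WT, and in stimulated cells 3.58 and 2.31 CPM in KO and 0.996 and 8.56 CPM in WT. A 3′ tag outside the deleted part of a gene does not test its deletion, so KO and WT mean here the libraries labelled as such. Young fresh WT replicate 1 stood apart: it had 0 counts of Xist and 200 CPM of Y-linked genes, whereas the other 11 libraries had 197 to 743 CPM of Xist and at most 6.61 CPM of Y-linked genes. The gate's own genes were present in every library, Kit at 190.2 to 422 CPM and Ly6a, which encodes Sca-1, at 39.2 to 176 CPM. Of 8 T and NK cell genes, Cd3e, Cd4 and Cd8a had 0 counts throughout, while Nkg7 made up most of a summed level of 96.5 to 143 CPM in stimulated KO and 147 to 230.0 CPM in stimulated WT cells, against 18.3 to 34.6 CPM in young fresh KO and at most 18.2 CPM in young fresh WT cells. In old fresh cells the sum was 10.9 to 48.8 CPM in KO and 0 to 3.71 CPM in WT.

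Gpx1, a glutathione peroxidase, was the 1 gene of the 10 that passed for stimulation, and Prdx1, a peroxiredoxin, was the 1 that passed for age, both as higher. Gpx1 averaged 769 ± 16.4 and 798 ± 110 CPM in stimulated KO and WT cells (SD, n = 2 each), against 350.1 ± 50.2 and 412 ± 81.1 CPM in young fresh KO and WT cells. Prdx1 averaged 712 ± 37.6 and 565 ± 232 CPM in old fresh KO and WT cells, against 179 ± 62.1 and 487 ± 48.1 CPM in young fresh KO and WT cells. Its old and young libraries overlapped. On the log2 scale its difference for age was 1.99 in KO cells alone and 0.19 in WT cells alone (edgeR adjusted p = 0.989 in WT). The fit behind this call made more false calls on simulated data than its threshold allows. In these bulk libraries a different share of some cell type and a different amount of RNA per cell cannot be told apart. No other member passed in these comparisons, in either direction. By the same rule, a Benjamini-Hochberg adjusted p under 0.05 in edgeR's quasi-likelihood test, 2.81% of all 11548 genes tested passed for stimulation (1.31% higher and 1.51% lower) and 2.72% of 10680 for age (1.76% higher and 0.964% lower). At an unadjusted p under 0.05 in the same test were 6 members for stimulation, against 17.7% of all genes. Of these, Gpx1, Gpx4, Prdx1 and Txn1 were higher and Sod1 and Txnrd1 lower. For age, 2 members were under it, Prdx1 (higher) and Txn1 (lower), against 13.2% of all genes. With library totals alone in place of TMM, 226 genes were called higher and 125 lower for stimulation, against 151 and 174 under TMM, and 142 and 148 for age, against 188 and 103. With 10 members a single call is read as a result about that gene, and not about the set.

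Gpx1 and Prdx1 are the genes whose promoters are shown, because they carry the calls. Both are RefSeq windows on GRCm38.p6 that run from 250 bases before to 50 bases after the annotated start, read along the plus strand, at chr9:108338830-108339129 for Gpx1 and chr4:116685349-116685648 for Prdx1. Capitals mark the core of the antioxidant response element, the DNA motif that NRF2 binds together with small MAF proteins, searched as TGACNNNGC on both strands.
Gpx1: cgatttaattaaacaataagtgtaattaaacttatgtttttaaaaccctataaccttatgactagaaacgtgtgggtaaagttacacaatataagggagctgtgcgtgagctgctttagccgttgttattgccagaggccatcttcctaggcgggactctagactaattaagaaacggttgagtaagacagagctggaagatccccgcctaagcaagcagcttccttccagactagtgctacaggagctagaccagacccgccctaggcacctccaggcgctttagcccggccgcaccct
Prdx1: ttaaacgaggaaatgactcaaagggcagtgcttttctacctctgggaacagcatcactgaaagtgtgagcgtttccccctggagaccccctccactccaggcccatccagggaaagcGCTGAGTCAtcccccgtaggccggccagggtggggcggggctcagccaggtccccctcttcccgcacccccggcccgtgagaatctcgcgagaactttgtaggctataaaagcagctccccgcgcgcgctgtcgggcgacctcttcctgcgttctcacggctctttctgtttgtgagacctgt

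All 10 genes had at least 1 such window, and 4 of them (40%) held the motif in at least 1: Sod1, Prdx1, Txnrd1 and Gclm. The share was 19.7% among other antioxidant pathway genes (13 of the 66 with a window) and 14% over all genes (3781 of 27025), or 12.4% of all 32851 windows. A match is a run of letters and not a measured binding site. The matches of the 4 genes are set side by side to show how much varies outside the fixed letters, each printed along the plus strand while the motif reads along the opposite one. They lie at chr16:90220696-90220724 for Sod1, chr4:116685456-116685484 for Prdx1, chr10:82859104-82859132 for Txnrd1 and chr3:122245413-122245441 for Gclm.
Sod1: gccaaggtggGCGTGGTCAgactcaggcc
Prdx1: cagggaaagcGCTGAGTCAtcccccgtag
Txnrd1: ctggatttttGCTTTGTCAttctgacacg
Gclm: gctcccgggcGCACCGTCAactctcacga
Of these 4, Prdx1 passed for age and none passed for stimulation, while Gpx1, which passed for stimulation, had no match in its window.

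**Figure D1:**
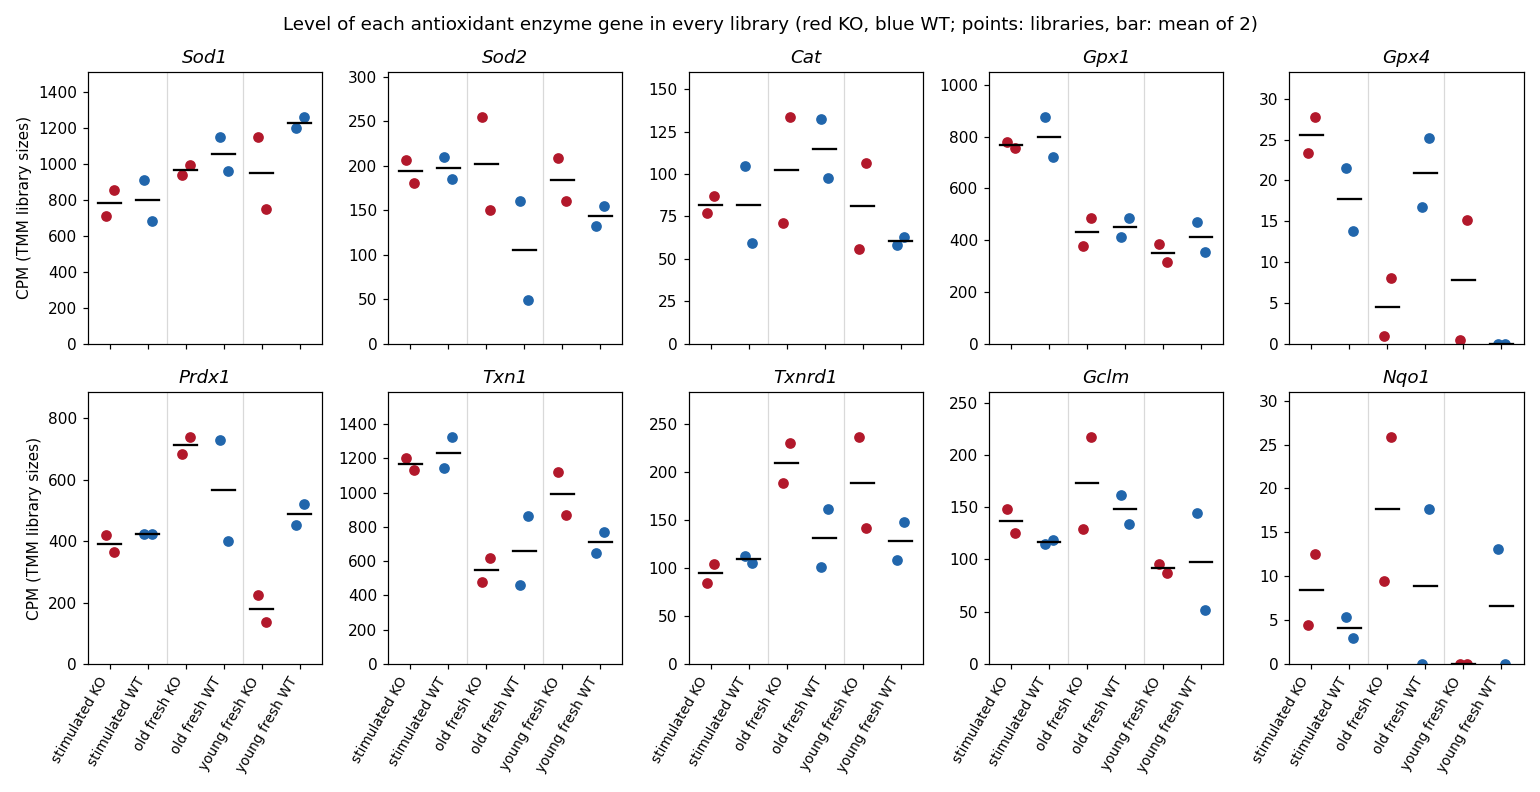
CPM (TMM library sizes) of each of the 10 genes in every library; red points are KO and blue points WT libraries, and bars are the mean of the 2 libraries of a group. Gpx1 lies at 720.4 CPM or above in the 4 stimulated libraries and at 487 CPM or below in the 8 fresh ones, and Prdx1 is lowest in the 2 young fresh KO libraries. Of all genes tested, 14.6% are higher in the 4 stimulated than in the 4 young fresh libraries without overlap.

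Among the superoxide dismutases, Sod1, the copper and zinc enzyme of the cytosol (chr16:90220754-90226329, plus strand, on GRCm38 as are all gene positions here), had 709 and 854 CPM in stimulated KO cells and 914 and 681 CPM in stimulated WT cells. It had 938 and 994 CPM in old fresh KO and 1150.3 and 962 CPM in old fresh WT cells. In young fresh cells it had 1153 and 751 CPM in KO and 1199.6 and 1260.5 CPM in WT. Young fresh WT cells stood highest and both stimulated groups lowest, yet young fresh KO replicate 4 lay among the stimulated libraries, so stimulated and young fresh libraries overlapped. The difference for stimulation was -0.45 ± 0.16 on the log2 scale (SE, edgeR adjusted p = 0.176). From the highest group mean down, the order was young fresh WT, old fresh WT, old fresh KO, young fresh KO, stimulated WT and stimulated KO, and only the first step separated groups whose libraries did not overlap.

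Sod2, the manganese enzyme of mitochondria (chr17:13006846-13040063, plus strand), had 207 and 181 CPM in stimulated KO cells and 209.8 and 185 CPM in stimulated WT cells. Old fresh KO cells had 255 and 150.0 CPM and old fresh WT cells 161 and 49.5 CPM. Young fresh KO cells had 209 and 159.9 CPM and young fresh WT cells 132 and 155 CPM. The stimulated libraries lay close together, and the 1 low value was in old fresh WT replicate 2. In young fresh cells both KO libraries lay above both WT libraries, with a difference of 0.35 ± 0.53 (SE, edgeR adjusted p = 1), and in old fresh cells the libraries overlapped at 0.96 ± 0.53 (edgeR adjusted p = 1). The means ran from old fresh KO through stimulated WT, stimulated KO, young fresh KO and young fresh WT to old fresh WT, and only young fresh KO and young fresh WT were neighbours without overlap.

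Of the peroxide reducers, Cat encodes catalase, the haem enzyme of peroxisomes (chr2:103453849-103485160, minus strand). It had 76.8 and 86.9 CPM in stimulated KO cells and 105 and 59.3 CPM in stimulated WT cells. Old fresh cells had 71.3 and 133 CPM in KO and 132 and 97.4 CPM in WT. Young fresh cells had 56.0 and 107 CPM in KO and 58.2 and 62.7 CPM in WT. Every pair of neighbouring groups overlapped, from old fresh WT at the top to young fresh WT at the bottom, and the difference for age was 0.62 ± 0.45 (SE, edgeR adjusted p = 0.622).

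Gpx1 encodes the glutathione peroxidase of cytosol and mitochondria, a selenoprotein (chr9:108338903-108340343, plus strand). It had 781 and 758 CPM in stimulated KO cells and 875 and 720.4 CPM in stimulated WT cells. Among old fresh cells the values were 379 and 485 CPM in KO and 414 and 487 CPM in WT, and in young fresh cells they were 386 and 315 CPM in KO and 469 and 355 CPM in WT. All 4 stimulated libraries lay above all 8 fresh ones, so the order of means, which put stimulated WT and stimulated KO first, had its single gap after those 2 groups. The 4 stimulated libraries lay above the 4 young fresh ones for 14.6% of all genes tested. The share for all 8 fresh libraries was not computed. The rise with stimulation was 1.05 ± 0.17 on the log2 scale (SE, 95% interval 0.68 to 1.41, edgeR adjusted p = 0.00326), which was 0.78 above the median of all genes tested. It was 1.14 ± 0.24 in KO cells alone (edgeR adjusted p = 0.0469) and 0.95 ± 0.24 in WT cells alone (edgeR adjusted p = 0.111), and the difference between the genotypes was 0.18 ± 0.34 (edgeR adjusted p = 1). Without young fresh WT replicate 1 it was 1.16 (edgeR adjusted p = 0.0081). Age gave 0.21 ± 0.23 (edgeR adjusted p = 0.782).

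Gpx4, the glutathione peroxidase that reduces lipid peroxides in membranes and guards against ferroptosis (chr10:80047166-80056439, plus strand), was close to the limit of counting. It had 85 and 84 counts in stimulated KO libraries (23.4 and 27.8 CPM) and 65 and 42 in stimulated WT libraries (21.6 and 13.8 CPM). In old fresh libraries it had 4 and 39 counts in KO (0.926 and 8.06 CPM) and 63 and 84 in WT (16.7 and 25.2 CPM). In young fresh libraries it had 1 and 29 counts in KO (0.509 and 15.2 CPM) and 0 in both WT libraries, where 3 counts would be 1.88 and 1.71 CPM. Stimulated KO, old fresh WT and stimulated WT cells had the highest means and young fresh WT cells, at 0, the lowest, and the 5 other groups overlapped with their neighbours. Against young fresh WT, levels were at least 19.8-fold higher in stimulated WT, 23.1-fold higher in old fresh WT and 8.65-fold higher in young fresh KO cells, with 3 counts over the young fresh WT group as the floor. These bounds cover counting error only, and 1 and 29 counts in the young fresh KO pair show how far replicates differed. The fitted difference for stimulation was 5.22 ± 1.68 (SE, edgeR adjusted p = 0.137), a value that depends on the zeros. It passed in DESeq2 (adjusted p = 0.0152) and limma voom (adjusted p = 0.0219). The last 300 bases of the longest coding Gpx4 transcript were 99.7% identical to the annotated copy Gpx4-ps2, whose symbol is not among those counted. Reads from the 2 cannot be told apart there, so the Gpx4 values are uncertain.

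Prdx1, the abundant peroxiredoxin of the cytosol that passes its oxidation on to thioredoxin (chr4:116685544-116700822, plus strand), had 419 and 365 CPM in stimulated KO cells and 423 and 423 CPM in stimulated WT cells. The old fresh libraries gave 685 and 738 CPM in KO and 729.7 and 401 CPM in WT. Young fresh cells had 223 and 135 CPM in KO and 453 and 521 CPM in WT. The 2 young fresh KO libraries were the lowest of all 12, and the only value of the old libraries inside the young range was old fresh WT replicate 2, so old and young libraries overlapped. The means descended from old fresh KO through old fresh WT, young fresh WT, stimulated WT and stimulated KO to young fresh KO, and each of the last 3 steps lay between groups whose libraries did not overlap.

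The rise of Prdx1 with age was 1.09 ± 0.25 on the log2 scale (SE, 95% interval 0.58 to 1.61, edgeR adjusted p = 0.0172), which was 1.04 above the median of all genes tested. In KO cells alone it was 1.99 ± 0.36 (edgeR adjusted p = 0.00708), and in WT cells alone 0.19 ± 0.34 (edgeR adjusted p = 0.989). The difference between those 2 values, the genotype by age interaction, was 1.80 ± 0.49 with an unadjusted p of 0.00164 and an edgeR adjusted p of 0.845, so it did not pass over all genes. It passed in DESeq2 (adjusted p = 0.0243) and without young fresh KO replicate 3 (2.27, edgeR adjusted p = 0.0306). Without young fresh WT replicate 1, the rise with age was 1.05 (edgeR adjusted p = 0.0103).

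Between KO and WT young fresh cells, Prdx1 differed by -1.45 ± 0.35 (SE, 95% interval -2.19 to -0.72), with both KO libraries below both WT libraries. Its unadjusted p was 0.000577 and its edgeR adjusted p 0.503. The adjusted p was 0.0445 with no filter on low counts, 0.00373 in DESeq2 and 0.631 in limma voom. It was 0.0153 without young fresh KO replicate 3, 0.0445 without old fresh WT replicate 1 and 0.0322 without old fresh WT replicate 2, and above the threshold without any of the other 5 fresh libraries, including 0.0966 without young fresh WT replicate 1. Across these left-out libraries the difference itself ran from -1.86 to -1.14. Stimulation gave 0.46 ± 0.21 for Prdx1 (edgeR adjusted p = 0.267), as 1.13 ± 0.30 in KO cells alone (adjusted p = 0.122) and -0.20 ± 0.30 in WT cells alone (adjusted p = 0.915). The genotype by stimulation interaction was 1.33 ± 0.42 (unadjusted p = 0.00676, edgeR adjusted p = 0.885). This value, the age interaction and the KO difference in young fresh cells all use the same 4 young fresh libraries and are not independent of one another.

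Of the thioredoxin pair, Txn1 encodes the small thiol carrier itself (chr4:57943373-57956411, minus strand). It had 1204 and 1134 CPM in stimulated KO cells and 1143 and 1324 CPM in stimulated WT cells. In old fresh cells it had 477 and 621 CPM in KO and 459 and 863 CPM in WT, and in young fresh cells 1120.1 and 869 CPM in KO and 648 and 772 CPM in WT. All 4 stimulated libraries lay above the 4 young fresh ones, which was so for 14.6% of all genes tested, and young fresh KO replicate 3 lay just below the lowest of them. The difference for stimulation was 0.52 ± 0.19 (SE, edgeR adjusted p = 0.184), 0.25 above the median of all genes, and it passed with no filter on low counts (adjusted p = 0.0436). Age gave -0.49 ± 0.22 (unadjusted p = 0.041, edgeR adjusted p = 0.354) with overlapping libraries. Stimulated WT and KO means were the highest, followed by young fresh KO, young fresh WT, old fresh WT and old fresh KO, with gaps on either side of young fresh KO only.

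Txnrd1, the selenoprotein that recharges thioredoxin with NADPH in the cytosol (chr10:82833951-82897712, plus strand), had 84.8 and 104 CPM in stimulated KO cells and 113 and 105 CPM in stimulated WT cells. Old fresh cells had 188 and 231 CPM in KO and 101 and 162 CPM in WT. Young fresh cells had 236 and 142 CPM in KO and 108 and 148 CPM in WT. In the order of means old fresh KO and young fresh KO came first, then old fresh WT, young fresh WT, stimulated WT and stimulated KO, with 1 gap, between the stimulated groups. Stimulation gave -0.61 ± 0.27 (SE, edgeR adjusted p = 0.25), 0.88 below the median of all genes, with overlap at young fresh WT replicate 1. The difference between KO and WT was 0.69 ± 0.47 in old fresh cells (edgeR adjusted p = 1), where both KO libraries lay above both WT libraries, and 0.55 ± 0.47 in young fresh cells (edgeR adjusted p = 0.979), where they overlapped.

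Gclm encodes the modifier subunit of glutamate cysteine ligase, the enzyme of the first step of glutathione synthesis (chr3:122245557-122270732, plus strand). It had 148 and 125 CPM in stimulated KO cells and 115 and 119 CPM in stimulated WT cells. Old fresh cells had 129 and 217 CPM in KO and 162 and 134 CPM in WT, and young fresh cells 95.8 and 87.3 CPM in KO and 145 and 51.3 CPM in WT. The order of means was old fresh KO, old fresh WT, stimulated KO, stimulated WT, young fresh WT and young fresh KO, with young fresh WT replicate 1 inside the old range and 1 gap, between the stimulated groups. Age gave 0.75 ± 0.40 (SE, edgeR adjusted p = 0.448). In stimulated cells both KO libraries lay above both WT libraries, at a difference of 0.25 ± 0.16 (95% interval -0.10 to 0.60, edgeR adjusted p = 0.642). Gclm shares 244 exon bases with Gm6061 on its own strand and 296 with Gm17494 on the opposite strand, and the strand setting of the counting is not given in the sources used here, so its counts could include reads of either.

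Nqo1, which reduces quinones with NADH or NADPH and is a classical NRF2 target (chr8:107388225-107403206, minus strand), was counted at most 125 times in a library. It had 4.40 and 12.6 CPM in stimulated KO cells and 5.31 and 2.96 CPM in stimulated WT cells. Old fresh cells had 9.49 and 25.8 CPM in KO and 0 and 17.7 CPM in WT, and young fresh cells 0 and 0 CPM in KO and 13.1 and 0 CPM in WT. It was detected in all stimulated libraries, in 3 of 4 old fresh ones and in 1 of 4 young fresh ones, that 1 being young fresh WT replicate 1. The means fell into the order old fresh KO, old fresh WT, stimulated KO, young fresh WT, stimulated WT and young fresh KO, and only the last step was free of overlap. Against the young fresh KO group at 0, levels were at least 10.5-fold higher in stimulated KO and 23.4-fold higher in old fresh KO cells, again with a floor of 3 counts. No comparison of Nqo1 passed, and edgeR gave 3.51 ± 2.08 for stimulation (adjusted p = 0.411) and 4.55 ± 2.59 for age (adjusted p = 0.486).

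**Figure D2:**
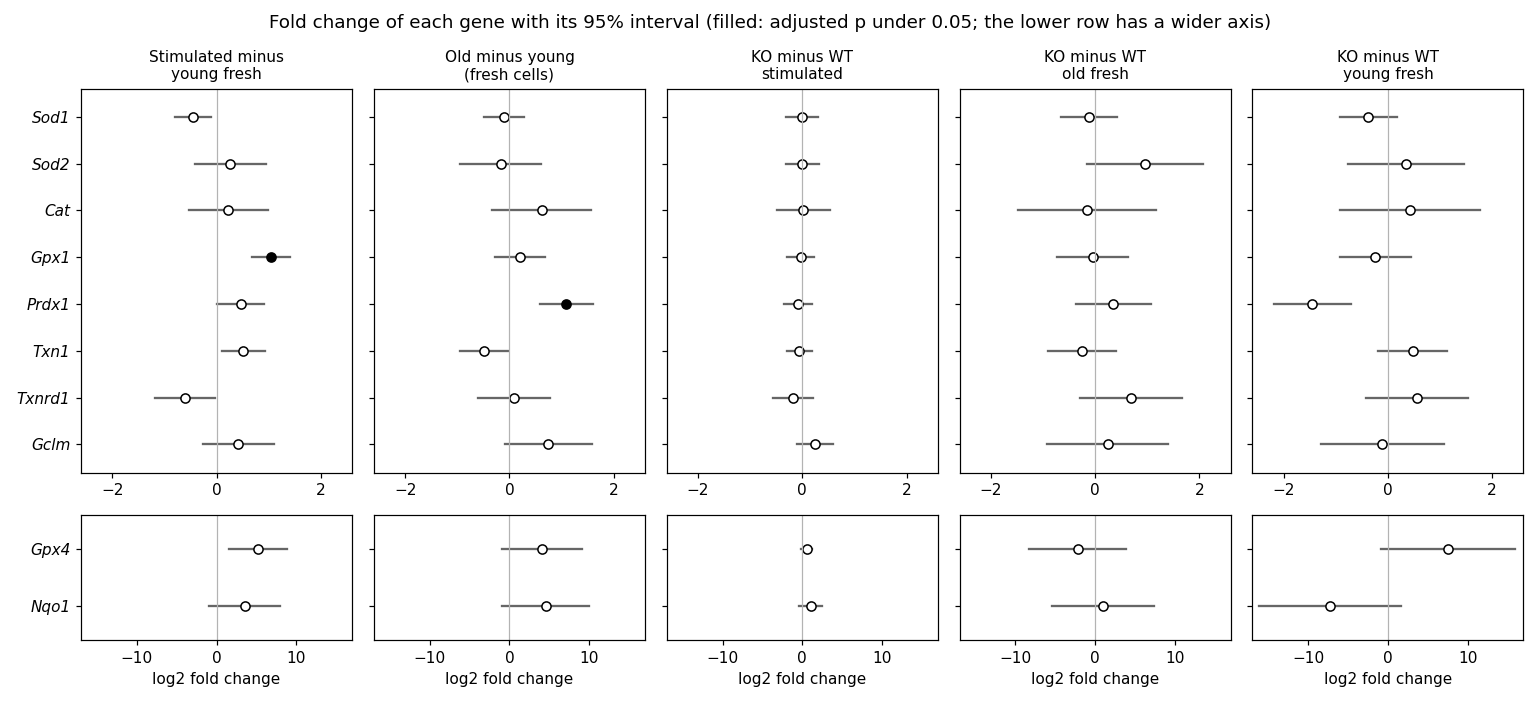
Log2 fold changes of the 10 genes in 5 comparisons with their 95% intervals; filled points have an edgeR adjusted p under 0.05, and Gpx4 and Nqo1 are drawn on a wider axis. Only Gpx1 for stimulation (1.05) and Prdx1 for age (1.09) are filled, and the intervals for stimulated KO against WT cells are the narrowest.

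Set against all genes, the 10 members had a median change of 0.44 with stimulation, 8 positive and 2 negative, where the median of the 11548 genes tested was 0.27, both under TMM scaling. Of all those genes, 6960 were positive and 4583 negative. The members' median and that of all genes were 0.37 and 0.20 under RLE scaling and 0.58 and 0.41 with library totals alone. For age the members' median was 0.41, 7 positive and 3 negative, and that of the 10680 genes tested was 0.05, with 5532 positive and 5148 negative. With library totals alone the 2 medians were 0.29 and -0.07, and Txnrd1 changed sign, which left 6 members positive and 4 negative. By role, the estimates of all 4 peroxide reducers and of Gclm and Nqo1 were above 0 in both comparisons under all 3 scalings, and the dismutases and the thioredoxin pair were each split for stimulation. For stimulation Cat, at 0.22, lay below the median of all genes, and the estimates of Gpx4 and Nqo1 depend on libraries at 0 counts.

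Cd38 genotype was asked about separately in each state, and no member passed in any of the 3. In stimulated cells 1.23% of 10494 genes passed (0.762% higher and 0.467% lower), and 0 members did so in edgeR, DESeq2 or limma voom, with 0 at an unadjusted p under 0.05. The 95% interval there was -0.29 to 0.23 for Gpx1, -0.36 to 0.18 for Prdx1, -0.29 to 0.19 for Txn1, -0.31 to 0.30 for Sod1 and -0.32 to 0.31 for Sod2, while for Cat it was -0.48 to 0.52 and for Txnrd1 -0.56 to 0.20. It reached from -0.14 to 1.25 for Gpx4 and from -0.40 to 2.48 for Nqo1, the widest. Both KO libraries lay above both WT libraries for Gpx4 and Gclm and below them for Prdx1 and Txnrd1, as was so for 19.5% and 22.6% of all genes. In young fresh cells 0% of 10680 genes passed, and Prdx1 was the 1 member of the 10 at an unadjusted p under 0.05, as were 519 of all genes (4.86%). Sod2, Gpx4 and Txn1 were higher and Sod1 and Prdx1 lower in both KO libraries, against 14.7% and 17.3% of all genes. For Gpx4 this rests on 1 count in young fresh KO replicate 3 against 0 in both young fresh WT libraries. In old fresh cells 0% passed, 428 genes (4.01%) and 0 members had an unadjusted p under 0.05, and Txnrd1 was higher and Gpx4 lower in both KO libraries, against 16.5% and 16.7% of all genes. DESeq2 called 134 genes in young and 102 in old fresh cells, of which Prdx1 in young cells was the only member, and limma voom called 0 and 22 genes and no member. Both interactions called 0% of all genes in edgeR, with 577 (5%) for stimulation and 587 (5.5%) for age at an unadjusted p under 0.05, Prdx1 being the 1 member among them in each.

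**Figure D3:**
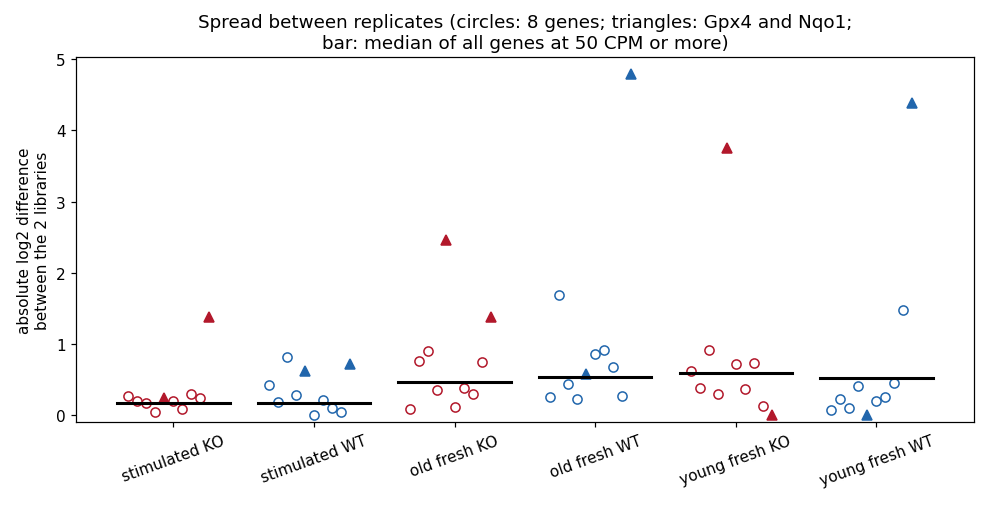
Absolute log2 difference between the 2 libraries of each group for the 10 genes; circles are 8 genes, triangles are Gpx4 and Nqo1 (at 0 where both libraries had 0 counts), and bars are the median of all genes of at least 50 CPM. The bars lie at 0.17 and 0.18 in stimulated KO and WT cells and at 0.47 to 0.60 in the fresh groups.

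The spread between replicates differed between the states. In stimulated cells the 2 libraries of a group differed by a median of 0.17 (KO) and 0.18 (WT) on the log2 scale over all genes of at least 50 CPM, and in fresh groups by 0.47 to 0.60. Among members, Prdx1 differed by 0.11 between the old fresh KO libraries and by 0.86 between the old fresh WT libraries. Sod2 differed by 1.69 between old fresh WT libraries and Gclm by 1.48 between young fresh WT libraries. Gpx1 differed by at most 0.40 in any group, less than its change of 1.05 with stimulation.

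Of 81 other genes of antioxidant pathways, the share that passed was near that of all genes. With stimulation 2 of 75 tested rose and 0 fell, where 1.31% and 1.51% of all genes did, both from the list of NADPH supply: Pgls, of the pentose phosphate pathway, by 2.62 ± 0.40 (SE, edgeR adjusted p = 0.00229) and Idh2, the mitochondrial isocitrate dehydrogenase, by 1.10 ± 0.28 (adjusted p = 0.0479). Pgls had 173 and 127 CPM in stimulated KO and 232 and 222 CPM in stimulated WT cells, against 13.2 and 19.9 CPM in young fresh KO and 51.3 and 57.6 CPM in young fresh WT cells. Idh2 had 276 and 300.3 CPM in stimulated KO and 318 and 314 CPM in stimulated WT cells, against 184 and 91.5 CPM in young fresh KO and 91.4 and 195 CPM in young fresh WT cells. For Pgls all 4 stimulated libraries lay above the 4 young fresh ones, and so they did for Idh2, as for 14.6% of all genes tested. Pgls passed in 20 of 21 alternative settings but Idh2 in 7 of 21, with adjusted p between 0.00157 and 0.349 over them. Of the 12 libraries, leaving out any 1 other than young fresh WT replicate 2 or young fresh KO replicate 3 ended the call of Idh2. The median of the 75 genes was 0.05, below the 0.27 of all genes.

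In the other lists, none of the genes nearest to the threshold passed for stimulation. Among other peroxiredoxins, Prdx4 of the endoplasmic reticulum gave -0.77 ± 0.39 (edgeR adjusted p = 0.333) and Prdx5 1.05 ± 0.88 (adjusted p = 0.576). The methionine sulfoxide reductases Msrb1 and Msrb3 gave 3.58 ± 1.33 and 4.14 ± 1.57 (adjusted p = 0.187 and 0.196). Msrb1 had 7 counts over the young fresh KO libraries and 11 over the young fresh WT ones. Msrb3 had 0 counts in young fresh WT cells, and in KO cells its mean was 8.42 CPM stimulated against 12.5 CPM young fresh. Both fitted values therefore depend on groups at or near 0. In glutathione supply, Gss, glutathione synthetase, had counts of 30 and 14 in stimulated KO and 20 and 22 in stimulated WT cells, against 0 in all 4 young fresh libraries (adjusted p = 0.172), so its fitted fold change depends on the prior count. Slc3a2, a chain of the cystine transporter, gave 1.35 ± 0.50 (adjusted p = 0.186). Of the NRF2 axis, Keap1, its repressor, gave -0.80 ± 0.34 and Nfe2l2, which encodes NRF2, -0.43 ± 0.28 (adjusted p = 0.235 and 0.465). Ferritin light chain Ftl1 gave 1.38 ± 0.62 and the ubiquinone reductase Aifm2 2.59 ± 2.04 (adjusted p = 0.259 and 0.550). Aifm2 had 0 counts in young fresh KO and 5 in young fresh WT cells. For selenoprotein synthesis, Eefsec had counts of 34 and 35 in stimulated KO and 19 and 27 in stimulated WT cells, against 1 count in all over the 4 young fresh libraries (adjusted p = 0.0904). Pstk gave -0.77 ± 0.90 (adjusted p = 0.707). The oxidase subunits Ncf1 and Ncf4, whose complex makes superoxide, gave 5.38 ± 1.98 and 3.35 ± 1.91 (adjusted p = 0.189 and 0.393). Ncf1 had 0 counts in both young fresh KO libraries and in 1 young fresh WT library. Ncf4 had 25 counts over the young fresh KO and 1 over the young fresh WT libraries. Their fitted values depend on these low counts.

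With age 1 of 73 tested pathway genes rose and 0 fell, where 1.76% and 0.964% of all genes did. The 1 was Glrx3, a glutaredoxin of iron and sulfur cluster delivery, by 1.18 ± 0.26 (SE, edgeR adjusted p = 0.0138). It had 615.3 and 615.4 CPM in old fresh KO and 762 and 818 CPM in old fresh WT cells, against 447 and 201 CPM in young fresh KO and 349.8 and 230.3 CPM in young fresh WT cells. Its 4 old libraries lay above its 4 young ones, as for 4.84% of all genes, and those of Prdx1 overlapped. Glrx3 passed in 15 of 17 alternative settings, but in neither KO cells alone (edgeR adjusted p = 0.404) nor WT cells alone (edgeR adjusted p = 0.082). Glrx3 and Prdx1 were called for age in the fit of the 8 fresh libraries, which on simulated data made more false calls than its threshold allows. None of the 6 oxidase subunits passed. All 6 of their estimates for age were below 0, at a median of -1.48, where the median of all genes tested was 0.05. Ncf1 had counts in 2 of the 8 fresh libraries.

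In stimulated cells, 1 of 70 tested pathway genes was higher and 1 lower in KO than in WT, where 0.762% and 0.467% of all 10494 genes tested were. Srxn1, the sulfiredoxin that repairs overoxidised peroxiredoxins such as Prdx1, had 40.5 and 34.4 CPM in KO and 11.0 and 15.8 CPM in WT cells, a difference of 1.51 ± 0.31 (SE, edgeR adjusted p = 0.0252). Ncf1 had 27.3 and 15.9 CPM in KO and 47.5 and 60.3 CPM in WT cells, a difference of -1.29 ± 0.29 (edgeR adjusted p = 0.0393). Both calls ended in the fit of all 12 libraries (edgeR adjusted p = 1 for each), where 0 genes were called. That fit estimates the spread of a gene over stimulated and fresh libraries together. Its common dispersion, a measure of spread between replicates, was 0.705, against 0.033 in the fit of the 4 stimulated libraries. The part of this in the lost calls was not tested. They also ended for Srxn1 without stimulated KO replicate 3 (edgeR adjusted p = 0.204) or 4 (0.0822), and for Ncf1 without stimulated KO replicate 3 (0.0824) or 4 (0.408) or stimulated WT replicate 2 (0.113). In fresh cells Srxn1 had 111 and 32.9 CPM in young fresh KO and 29.4 and 54.2 CPM in young fresh WT cells, and 16.9 and 9.50 CPM in old fresh KO and 9.81 and 39.6 CPM in old fresh WT cells. Its replicates differed by more than 1.51 on the log2 scale in young fresh KO (1.75) and old fresh WT (2.01) and by less in old fresh KO (0.83) and young fresh WT (0.88) cells.

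**Figure D4:**
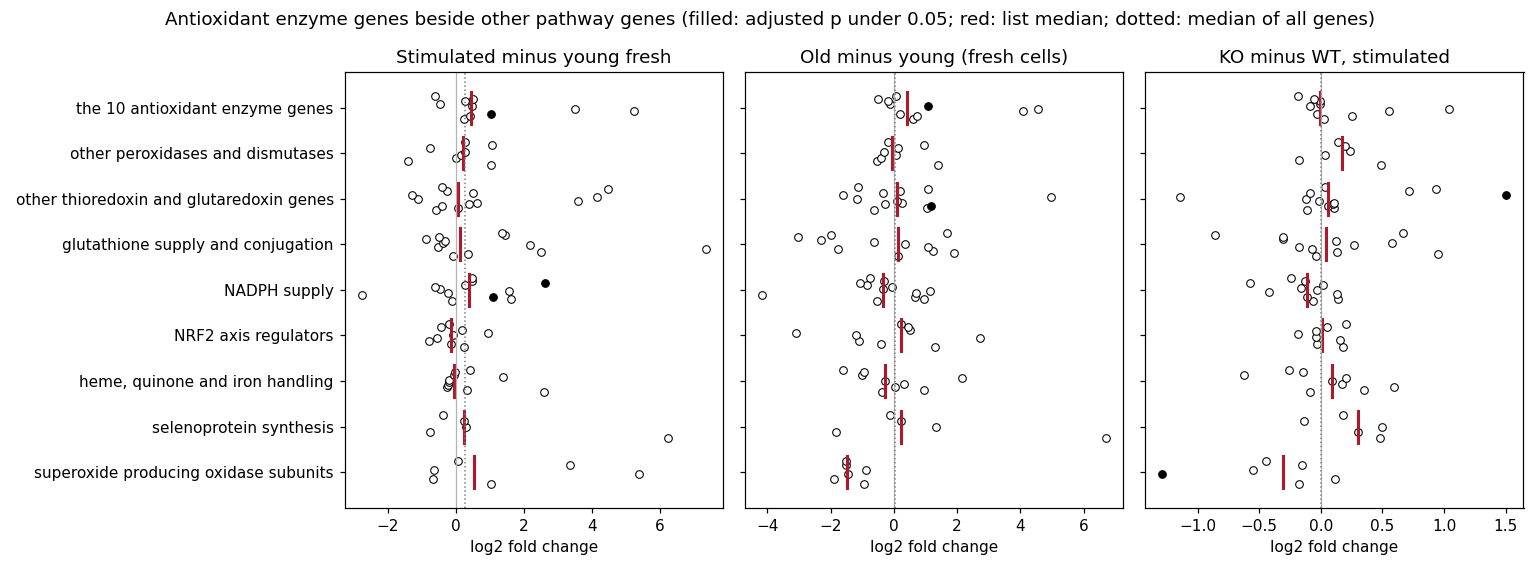
Log2 fold changes of the 10 genes and of the other pathway lists in 3 comparisons; each point is 1 gene, filled where the edgeR adjusted p was under 0.05, red bars are list medians and the dotted line is the median of all genes tested. Filled points are Gpx1, Pgls and Idh2 for stimulation, Prdx1 and Glrx3 for age, and Srxn1 and Ncf1 for KO against WT.

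Markers of blood lineages moved with the same comparisons. With stimulation, 4 of 10 neutrophil and granule genes rose (Ctsg, Elane, Mpo and Prtn3) and 4 fell (S100a8, S100a9, Camp and Ngp). Their summed level was 2261 to 3358 CPM in stimulated KO and 3789 to 3974 CPM in stimulated WT cells, against 5108 to 6664 CPM in young fresh KO and 5329 to 9660 CPM in young fresh WT cells. Of 9 erythroid genes tested Car2 fell, which alone made up 2179 to 3105 CPM in stimulated KO and 1601 to 1648 CPM in stimulated WT cells, against 3776 to 5206 CPM in young fresh KO and 3529 to 3880 CPM in young fresh WT cells. The whole list summed to 2389 to 3427 CPM in stimulated KO and 1947 to 2096 CPM in stimulated WT cells, against 4007 to 5441 CPM in young fresh KO and 3748 to 4242 CPM in young fresh WT cells. Of the 9 erythroid genes tested, 6 estimates for stimulation were above 0 and 3 below. The defining erythroid gene Alas2 was at 0 in all 4 fresh groups. Of 8 genes of long-term stem cells Hlf fell, with a sum of 730 to 877 CPM in stimulated KO and 494 to 582 CPM in stimulated WT cells, against 1215 to 1282 CPM in young fresh KO and 1318 to 1589 CPM in young fresh WT cells. The part of these shifts in the values of Gpx1 was not tested.

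With age, 0 of 10 neutrophil and granule genes rose and 4 fell (Camp, Ngp, S100a8 and S100a9), to a sum of 1166 to 3279 CPM in old fresh KO and 423 to 1498 CPM in old fresh WT cells, where Lcn2 was at 0. Of the erythroid genes Car1 rose, with a sum of 5631 to 6031 CPM in old fresh KO and 5581 to 6756 CPM in old fresh WT cells, and both Hba-a1 and Hba-a2 were at 0 there. Car2 alone made up 5183 to 5255 CPM of it in old fresh KO and 5309 to 5985 CPM in old fresh WT cells. Of 7 megakaryocyte genes Pf4 rose, and the list summed to 1443 to 2379 CPM in old fresh KO and 367 to 645 CPM in old fresh WT cells, against 397 to 653 CPM in young fresh KO and 286 to 438 CPM in young fresh WT cells. Of 8 genes of long-term stem cells Hlf fell, but the list was split, with 4 estimates above 0, 4 below and a median of -0.02. The part of these shifts in the rise of Prdx1 was not tested. Between stimulated KO and WT cells, Car2, Mecom, Pf4 and Vwf were higher and Ebf1, Vpreb1 and Irf8 lower in KO. Of the 9 erythroid genes tested there, 3 estimates were above 0 and 6 below. Among the 6 monocyte and macrophage genes tested, 1 passed (Irf8). That list, whose cells carry the oxidase that Ncf1 belongs to, summed to 131 to 153 CPM in KO and 199 to 215 CPM in WT cells. The estimates of all 8 neutrophil and granule genes tested were also lower in KO, at a median of -0.56, though 0 passed. Their list summed to 2261 to 3358 CPM in stimulated KO and 3789 to 3974 CPM in stimulated WT cells. The part of either list in the difference of Ncf1 was not tested.

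Over the 6 group means, the 8 members of at least 50 CPM were also matched to the gene with the most similar profile among 3584 other genes of that level, by the root mean square difference of centred log2 CPM. The smallest differences were 0.05 between Gclm and Nudt16l1 and 0.06 between Cat and Purb. They were 0.07 for Sod1 and Ikbkb, 0.09 for Txnrd1 and Erbb2ip, 0.10 for Gpx1 and Etfb, 0.10 for Txn1 and Pigt, 0.11 for Sod2 and Psmd7, and 0.14 for Prdx1 and Nr3c1. With 6 points and many candidates such matches are a description, with no test. Within the set, Cat and Gclm were the closest pair at 0.19, and Prdx1 stood 0.48 from its nearest member, Gclm, and Sod2 0.43 from Txn1.

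This protocol counts 3′ ends, and that of the longest coding transcript of each gene was compared with all annotated transcripts. Other 3′ ends of the same genes were not compared. The last 300 bases of Cat, Gpx1, Prdx1, Txn1, Txnrd1, Gclm and Nqo1 matched no other gene over at least 100 bases at 90% identity or more. Sod1 matched 2 processed pseudogenes, the closer at 97.8%, neither of them among the symbols counted, and Gpx4 matched 1 further transcript at 99.7%, Gpx4-ps2, also not among them. The tail of the longest Sod2 transcript matched 279 genes, through a stretch that many transcripts share. Reads of Sod1, Sod2 and Gpx4 could therefore have been split or discarded in a way the deposited counts do not show.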

How the data were processed

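The authors deposited 1 raw count per gene symbol and library, made by aligning reads to mm10 with HISAT2 2.2.1 and counting with HTSeq 0.9.1, per the submitters' processing notes. DESeq2 1.34.0 is listed there too. Libraries were made from RNeasy Plus Micro RNA with the QuantSeq 3′ FWD kit, per the labels' protocols. Annotation, strand setting and read filters are not given in the sources used here.

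Counts were fitted in R 4.3.3 with edgeR 4.0.16 (glmQLFit and glmQLFTest, TMM, filterByExpr at min.count 10 and min.total.count 15), with Benjamini-Hochberg adjustment over all genes of a fit. Stimulation and its interaction used all 12 libraries (11548 genes). Their p-values thus rest on 1 spread per gene, estimated over stimulated and fresh libraries together. Age, its interaction and KO against WT in fresh cells used the 8 fresh libraries (10680 genes). KO against WT in stimulated cells used the 4 stimulated libraries (10494 genes). All 10 members passed each filter. The fits had 6, 4 and 2 residual degrees of freedom. A gene changed when its adjusted p was under 0.05 in 1 of the 7 contrasts.

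CPM used TMM sizes over 12 libraries, and 1 count was worth 0.207 to 0.626 CPM. Groups wholly at 0 were bounded with 3 counts over the group. Bounds cover counting error only. Of each other pathway list, the 2 genes with the smallest p for stimulation were named, and any that passed elsewhere. Promoter windows came from RefSeq on GRCm38.p6, and gene positions and transcripts from GENCODE on GRCm38. Alternatives were limma 3.58.1 (voom) and DESeq2 1.42.0, other scalings, no filter, a replicate block, other sets of libraries, each genotype alone and each library left out. The fits were tested on simulated data in 2 ways. With round dispersions assumed at first, the fits of 12 and of 8 libraries called none of the changed genes. With dispersions then taken from each group, every fit recovered changed genes, though few of the smallest changes with 12 or 8 libraries. The share of false calls was then several times the threshold with the 8 fresh libraries, slightly above it with the 4 stimulated ones, and 0 with 12, so calls for age may be too many. The members, lists and contrasts were chosen with earlier results of these data known.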

Additional observations from a re-analysis of the deposited data

How the results depend on the processing

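Gpx1 for stimulation passed in 20 of 21 settings, between 0.95 and 1.19 on the log2 scale, and Prdx1 for age in 16 of 17, between 0.19 and 1.99. Each failed with WT libraries alone, where 0 members were called. For stimulation 2 members passed with no filter (Gpx1 and Txn1), 2 in limma voom (Gpx1 and Gpx4) and 3 in DESeq2 (Gpx1, Gpx4 and, lower, Sod1). Prdx1 was the 1 member called for the genotype by age interaction in DESeq2, and for KO against WT in young fresh cells with no filter and in DESeq2. With 1 library left out, 0 to 1 members were called in both of these comparisons. The causes were not tested.

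Over all genes, stimulation gave 325 calls, against 521 with no filter, 708 in limma voom, 774 in DESeq2, 75 in KO alone, 92 in WT alone and 160 to 423 with a library left out. Age gave 291, against 450 with no filter, 577 on all 12 libraries, 924 in DESeq2, 93 in KO alone, 86 in WT alone and 287 to 551 with a library left out. KO against WT in stimulated cells gave 129, against 340 with no filter, 85 in limma voom, 0 on all 12 libraries and 24 to 296 with a library left out. The genotype comparisons of fresh cells, at 0, gave 10 and 18 with no filter in young and old cells, 3 and 5 on all 12 libraries, and 3 to 65 and 7 to 41 with a library left out. The age interaction gave 14 with no filter, 87 in DESeq2, 4 on all 12 libraries and 4 to 57 with a library left out, and the stimulation interaction 10, 32 and, with a library left out, 0 to 7.

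Deviations of same-numbered libraries correlated at -0.0132 to 0.0118 between groups, so no pairing by number was seen. Each of these correlations involves a fresh group, where replicates correlated at only 0.704 to 0.746. Such a spread could hide a pairing, so these values cannot exclude it. With the replicate number as a block, Gpx1 for stimulation was 1.05 (adjusted p = 0.000154) and Prdx1 for age 1.08 (adjusted p = 0.00111), with 468 and 438 genes called, and no member's call changed.

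Signs turned only for members that had not passed, most of them near 0. For stimulation in WT alone Prdx1 was -0.20 and Nqo1 -0.66. For age Txnrd1 was -0.045 with library totals alone, and in KO alone Sod1 was 0.023, Sod2 0.14 and Gpx4 -0.79. For KO against WT, Gclm was 0.10 in young fresh cells in limma voom. In stimulated cells, library totals gave 0.024 for Sod1, 0.026 for Sod2 and 0.00060 for Gpx1, limma voom 0.00054 for Sod2, and all 12 libraries -0.0013 for Cat.

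With single libraries left out, signs turned within these ranges. For age they were -0.25 to 0.063 for Sod1, -0.70 to 0.15 for Sod2 and -0.10 to 0.29 for Txnrd1. For the genotype by stimulation interaction they were -0.80 to 0.13 for Cat, -0.61 to 0.90 for Gclm and -0.032 to 0.39 for Gpx1. For the genotype by age interaction they were -0.58 to 0.93 for Gclm, -0.017 to 0.40 for Gpx1, -0.0034 to 0.61 for Sod1, -0.028 to 1.67 for Sod2 and -0.19 to 0.56 for Txnrd1. For KO against WT in stimulated cells they were -0.33 to 0.49 for Cat, -0.16 to 0.12 for Gpx1, -0.18 to 1.7e-05 for Prdx1, -0.20 to 0.22 for Sod1, -0.097 to 0.091 for Sod2 and -0.16 to 0.059 for Txn1. For KO against WT in young fresh cells they were -0.13 to 0.80 for Cat, -0.68 to 0.82 for Gclm and -8.38 to 0 for Nqo1. For KO against WT in old fresh cells they were -0.69 to 0.22 for Cat, -0.19 to 0.55 for Gclm, -0.25 to 0.10 for Gpx1, -0.0027 to 8.67 for Nqo1, -0.036 to 0.83 for Prdx1, -0.25 to 0.0052 for Sod1 and -0.65 to 0.26 for Txn1. A group left with 1 library is assumed to vary like the others. With at most 85 and 125 counts in a library, Gpx4 and Nqo1 carry a large counting error, and replicates differed by more in the fresh than in the stimulated groups.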
